A study of Mus musculus with 2 samples.

Results

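Triglyceride synthesis and its supply of glycerol phosphate were followed in differentiating brown preadipocytes through 10 genes, taken by symbol from the deposited FPKM table. These genes were Gpam, Agpat2, Lpin1, Lpin2, Dgat1, Dgat2, Gpd1, Gpd2, Pck1 and Aqp7, and all 10 were found among the 23359 symbols with values. The RNA-Seq compared 1 library of brown preadipocytes at day 0 (D0) with 1 library of brown adipocytes at day 7 (D7), both grown from the interscapular brown fat of newborn C57BL/6 mice. By the labels, cells were expanded in 20% serum and plated before day 0 in medium with 10% serum, insulin at 0.1 μM and the thyroid hormone T3 at 1 nM. Induction added indomethacin at 0.125 mM, dexamethasone at 2 μg/ml and the phosphodiesterase inhibitor IBMX at 0.5 mM, after which the cells went back to the medium without these inducers. The labels and the results text of the study call the cells primary, whereas its methods describe preadipocytes immortalized with large T. The methods also give less serum in the growth medium and lower concentrations of insulin and dexamethasone than the labels. These methods name several newborn animals of either sex, but whether their cells were pooled was not given in the sources used here. With no replicate library at either stage, no p-value was computed, and every interval below covers counting error between these libraries only.

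Triglyceride is built on a glycerol phosphate backbone. Glycerol-3-phosphate acyltransferases (GPAT) add the initial acyl chain, lysophosphatidate acyltransferases (AGPAT) the next, lipins remove the phosphate from phosphatidate, and diacylglycerol acyltransferases (DGAT) add the last chain. In adipocytes the backbone comes from glycolysis, from pyruvate through Pck1, a route called glyceroneogenesis, or from glycerol itself. Glycerol passes the membrane through aquaglyceroporins such as Aqp7. Brown adipocytes store triglyceride in many small droplets as fuel for heat production.

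Of the 10 genes, 9 were higher in the D7 library by at least 2.0-fold, 0 were lower by that much, and Lpin2 lay between. Over all 14984 genes above 0 in both libraries, 18.5% were higher by at least 2.0-fold and 13.2% were lower. At 4.0-fold, 9 of the 10 were still higher, against 8.08% of all genes, and 0 were lower, against 3.86%. The median log2 ratio of D7 to D0 was 4.46 for the 10 genes and 0.02 for all genes. Without a pseudocount or rescaling, the ratio exceeded 10-fold in 8 of the 10 genes. Each of the 9 higher genes then had a larger ratio than at least 96.3% of all genes. Of the 8, Pck1 was at 6.32 with a pseudocount of 0.1 and at 1.62 with 1. Lpin1 was at 9.99 with the floor and library median described for Lpin2 below. Summed over the 10 genes, FPKM, the number of fragments scaled to transcript length and library size, was 59.3 at D0 and 3109 at D7. These sums were 0.0116% and 0.595% of the summed FPKM of each library.

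**Figure D1:**
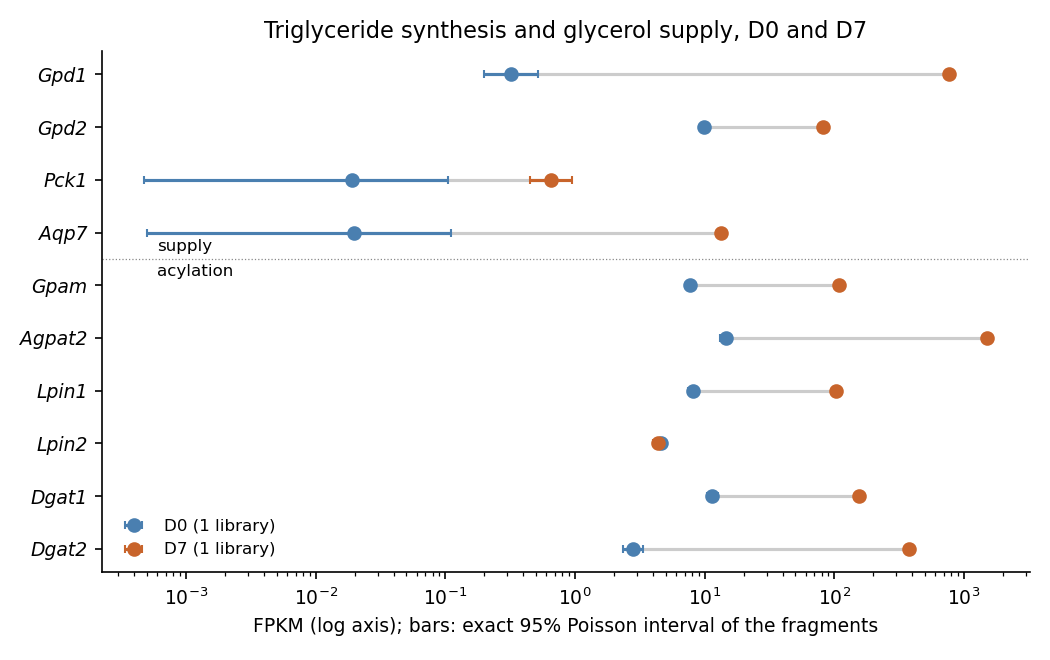
FPKM of the 10 genes at D0 (blue) and D7 (orange) on a log axis, with exact 95% Poisson intervals of the recovered fragments as bars. Lpin2 is the gene whose points coincide, and Pck1 and Aqp7 have wide bars at D0 because each rested on about 1 fragment.

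The labelled cell types were compared with their markers. All 8 adipocyte markers were higher at D7, among them Adipoq, which went from 0.221 to 943 FPKM. Of 7 brown adipocyte markers, 4 were listed at 0 at D0, and all 7 were above 0 at D7, where FPKM ran from 2.11 to 388.6. At D7, Ucp1, Ppargc1a and Dio2 were low, at 4.57, 4.41 and 2.11 FPKM. Cidea and Elovl3 were at 24.4 and 34.2 FPKM, and Cox8b and Cox7a1 at 253 and 388.6 FPKM. The 5 preadipocyte markers summed to 1257 FPKM at D0 and 779 at D7, with Cd34 higher, Thy1 lower and the other 3 between the thresholds. All 9 macrophage markers were also higher at D7, with a summed FPKM of 149.9 at D0 and 574 at D7, and their part in the values below was not tested. The 4 endothelial markers summed to 0.995 FPKM at D0 and 2.32 FPKM at D7, with Kdr and Tek higher and Cdh5 lower. Of the 6 skeletal muscle markers, Myod1 and Ckm were listed at 0 in both libraries, Myog, Myh3 and Actn2 had at most 2 fragments in a library, and Des, which other mesenchymal cells also express, was at 5.74 FPKM at D0 and 3.03 FPKM at D7. Of the 5 erythroid markers, 4 were listed at 0 in both libraries, and Alas2 had 1 fragment in each. In such bulk RNA, a changed share of cells of a type and a changed amount of RNA per cell cannot be told apart. By the calibration described with the processing, the FPKM values were relative to about 21471371 fragments at D0 and 18265534 at D7. These library sizes were inferred from the FPKM values and are not the mapped read counts that the study reports.

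Gpd1, the cytosolic NAD-linked glycerol-3-phosphate dehydrogenase, makes glycerol phosphate from the glycolytic intermediate dihydroxyacetone phosphate. Gpd1 (ENSMUSG00000023019.12, spanning 99717515 to 99725005 of chromosome 15 in mm10) was counted at 0.322 FPKM (about 19 fragments) in preadipocytes and at 761 FPKM (about 37221 fragments) in adipocytes. It ranked 97 of all genes by level at D7. Its ratio of 2365 (95% interval 1514 to 3928) ranked 11 among the 14984 genes above 0 in both libraries. The interval of Gpd1 lies within that of Aqp7 (121 to 26778), so the order of these ratios was not resolved. With a pseudocount of 1 added to each FPKM, the ratio of Gpd1 was 576. The related Gpd1l, the other cytosolic enzyme of this kind, went from 6.13 FPKM in preadipocytes to 12.2 FPKM in adipocytes, with a ratio of 1.98 (1.78 to 2.21) just under the threshold. Gpd1 thus held 4.98% of the summed FPKM of this pair at D0 and 98.4% at D7.

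Gpd2, the mitochondrial FAD-linked enzyme, runs the opposite way and passes electrons from glycerol phosphate to the respiratory chain. With Gpd1 it forms the glycerol phosphate shuttle, for which brown fat is known. Gpd2 (ENSMUSG00000026827.12, spanning 57237635 to 57370719 of chromosome 2) stood at 9.88 FPKM before and 82.5 FPKM after differentiation, which is a ratio of 8.36 (7.86 to 8.89). Without a pseudocount it was the smallest ratio among the 9 higher genes, but the interval of Pck1 (5.67 to 1393) contains it, and with pseudocounts of 0.1 and 1 Gpd2 was at 8.28 and 7.68 and Pck1 at 6.32 and 1.62. The level of Gpd2 was 30.7 times that of Gpd1 at D0, whereas at D7 the level of Gpd1 was 9.22 times that of Gpd2.

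Pck1 is the cytosolic phosphoenolpyruvate carboxykinase (PEPCK) of glyceroneogenesis. Pck1 (ENSMUSG00000027513.11, spanning 173153048 to 173159273 of chromosome 2) was counted at 0.0191 FPKM (about 1 fragment) in preadipocytes and at 0.652 FPKM (about 30 fragments) in adipocytes. Its ratio of 34.1 had an interval from 5.67 to 1393, and at D7 it was the lowest of the 10 genes by level. With a pseudocount of 1 its ratio was 1.62 and did not reach 2.0. Pck2, the mitochondrial PEPCK, measured 51.2 FPKM in the D0 library and 26.9 FPKM in the D7 library, giving a ratio of 0.526 (0.496 to 0.559) that did not reach 0.5, and 0.412 with the floor and library median described for Lpin2 below. Pck1 therefore held 0.0373% of the summed FPKM of the PEPCK pair at D0 and 2.36% at D7. Pyruvate carboxylase (Pcx), which makes the oxaloacetate that PEPCK uses and also feeds the citrate cycle, went from 9.86 to 842 FPKM. The Pcx ratio was 85.4 (79.7 to 91.5), so that its level was 31.2 times that of Pck2 at D7 and 0.193 times at D0.

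Aqp7 is the aquaglyceroporin through which adipocytes exchange glycerol. Aqp7 (ENSMUSG00000028427.13, spanning 41033074 to 41048139 of chromosome 4) was counted at 0.0199 FPKM (about 1 fragment) in preadipocytes and at 13.4 FPKM (about 576 fragments) in adipocytes. Its ratio was 677, with a wide interval from 121 to 26778, and fell to 14.2 with a pseudocount of 1. Among the other glycerol channels, Aqp11 went from 0.367 FPKM in preadipocytes to 8.07 FPKM in adipocytes, with a ratio of 22.0 (15.04 to 33.4), or 6.64 with a pseudocount of 1. Aqp9 was listed at 0 in both libraries, and Aqp3 had about 2 fragments in preadipocytes and was listed at 0 in adipocytes. Aqp7 held 62.5% of the summed FPKM of these 4 channels at D7. Glycerol kinase, the enzyme that would recapture glycerol, is listed as Gyk in the table and as Gk in current nomenclature. It went from 1.86 to 4.21 FPKM, a ratio of 2.26 (1.87 to 2.74), which did not reach 2.0 with a pseudocount of 1 (1.82) or with the library median (1.77). The related Gk5 had a ratio of 1.71 (1.28 to 2.29).

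Gpam encodes the GPAT of the mitochondrial outer membrane. Gpam (ENSMUSG00000024978.11, spanning 55067268 to 55127238 of chromosome 19) stood at 7.64 FPKM before and 109 FPKM after differentiation, which is a ratio of 14.2 (13.3 to 15.2). The GPATs of the endoplasmic reticulum behaved unequally. Gpat4, listed as Agpat6, measured 34.4 FPKM in the D0 library and 38.7 FPKM in the D7 library, giving a ratio of 1.12 (1.07 to 1.17). Gpat3, listed as Agpat9, went from 0.863 FPKM in preadipocytes to 28.5 FPKM in adipocytes, with a ratio of 33.0 (24.9 to 44.7), or 15.8 with a pseudocount of 1. Gpat2, the other mitochondrial GPAT, had about 7 fragments at D0 and 1 at D7, and its ratio of 0.168, which was 0.902 with a pseudocount of 1, had an interval from 0.00373 to 1.31 that includes 1. Gpat4 held 79.9% of the summed FPKM of the 4 GPAT genes at D0, against 17.8% for Gpam. At D7 Gpam held 61.9%, Gpat4 22.0% and Gpat3 16.2%.

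Agpat2 makes phosphatidate from lysophosphatidate, and its loss causes generalized lipodystrophy in humans and mice. Agpat2 (ENSMUSG00000026922.13, spanning 26593057 to 26604417 of chromosome 2) stood at 14.5 FPKM before and 1505 FPKM after differentiation, which is a ratio of 103.9 (94.2 to 114.8). It had the highest level of the 10 genes at both stages and ranked 25 of all genes at D7. Agpat1 went from 47.6 to 48.3 FPKM, with a ratio of 1.02 whose interval from 0.952 to 1.08 includes 1. Agpat3 was higher, with a ratio of 3.38 (3.19 to 3.59), and Lclat1, which acts on lysocardiolipin, was lower, with a ratio of 0.410 (0.384 to 0.437). Agpat4 and Agpat5 had ratios of 0.516 and 1.24 and passed neither threshold, although Agpat4 was at 0.404 with the library median. Agpat2 held 9.99% of the summed FPKM of the 6 AGPAT genes at D0, less than Agpat1 with 32.8% and Lclat1 with 26.3%. At D7 it held 90.9%, and the sum itself went from 145 to 1656.

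Lpin1 and Lpin2 encode lipins, phosphatidate phosphatases that also act as coregulators of transcription in the nucleus. Lpin1 (ENSMUSG00000020593.15, spanning 16535669 to 16610966 of chromosome 12) measured 8.09 FPKM in the D0 library and 103 FPKM in the D7 library, giving a ratio of 12.8 (11.8 to 13.8). Lpin2 (ENSMUSG00000024052.17, spanning 71182560 to 71249817 of chromosome 17) was counted at 4.61 FPKM (about 541 fragments) in preadipocytes and at 4.38 FPKM (about 437 fragments) in adipocytes. The ratio of Lpin2 was 0.950 with an interval from 0.836 to 1.08, so no change was detectable at this depth. Setting values under 0.01 to 0.01 and dividing each library by the median of its values lowered every log2 ratio above that floor by 0.35. In that setting the ratio of Lpin2 was 0.744. The remaining lipin, Lpin3, went from 4.00 FPKM in preadipocytes to 6.42 FPKM in adipocytes, with a ratio of 1.60 (1.37 to 1.88). Lpin1 held 48.4% of the summed FPKM of the 3 lipins at D0 and 90.5% at D7, while the share of Lpin2 was 27.6% at D0 and 3.84% at D7. The phosphatases Plpp1, Plpp2 and Plpp3, which act on lipid phosphates mainly at the cell surface, are listed as Ppap2a, Ppap2c and Ppap2b. Plpp2 was lower, with a ratio of 0.427 (0.372 to 0.490), and Plpp1 was at the threshold itself, with 0.4999 (0.471 to 0.530) and 0.503 with a pseudocount of 1. Plpp3 had a ratio of 1.94 (1.87 to 2.02).

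Dgat1 and Dgat2 catalyse the same last step but belong to unrelated protein families. Dgat1 (ENSMUSG00000022555.12, spanning 76502015 to 76511953 of chromosome 15) stood at 11.4 FPKM before and 155 FPKM after differentiation, which is a ratio of 13.5 (12.2 to 14.99). Dgat2 (ENSMUSG00000030747.5, spanning 99153658 to 99182719 of chromosome 7) was counted at 2.81 FPKM (about 126 fragments) in preadipocytes and at 375 FPKM (about 14229 fragments) in adipocytes. Its ratio was 133 (112 to 160), and the intervals of the DGAT ratios do not overlap. The level of Dgat1 was 4.07 times that of Dgat2 at D0, and the level of Dgat2 was 2.42 times that of Dgat1 at D7. The share of Dgat2 in the pair was thus 19.7% at D0 and 70.8% at D7. The monoacylglycerol acyltransferases start from monoacylglycerol instead of glycerol phosphate. Mogat2 measured 3.80 FPKM in the D0 library and 0.241 FPKM in the D7 library, giving a ratio of 0.0634 (0.0250 to 0.134), or 0.259 with a pseudocount of 1. Mogat1 was listed at 0 in preadipocytes and at 1.34 FPKM (about 24 fragments) in adipocytes. The adipocyte level of Mogat1 was 9.56 times the limit of 3 fragments at D0.

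**Figure D2:**
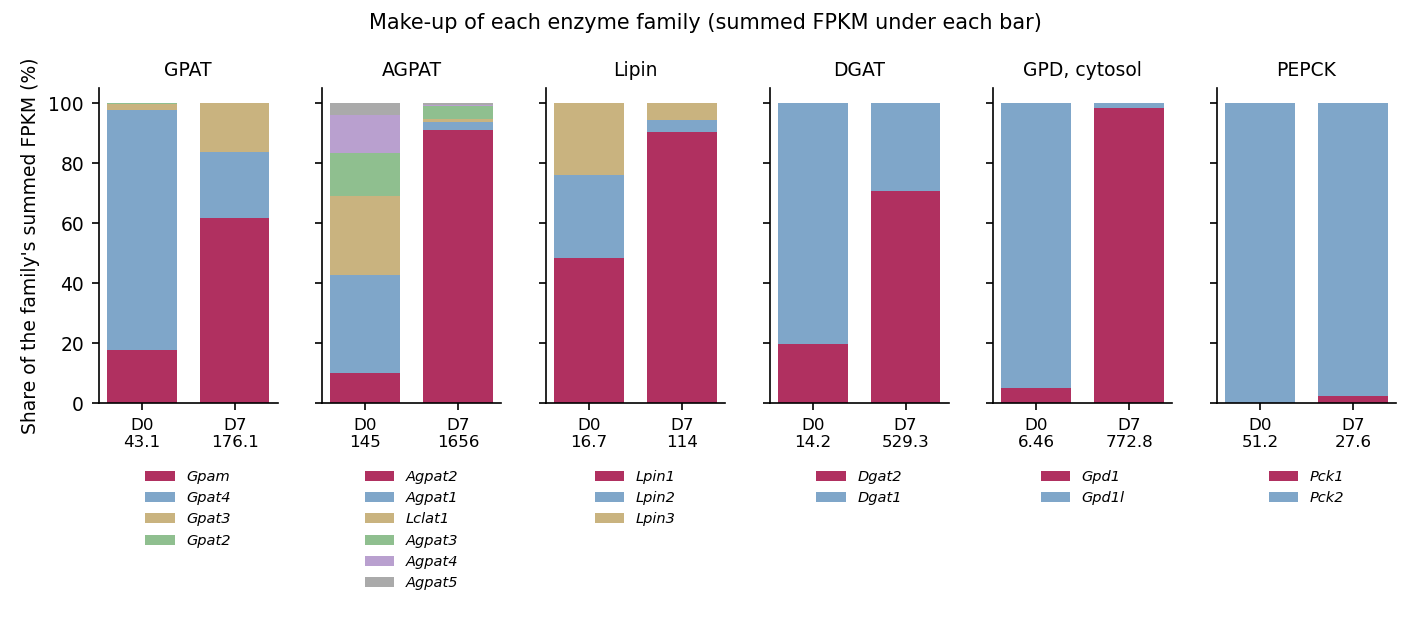
Share of the summed FPKM held by each gene of 6 enzyme families at D0 and D7, with the sums under the bars. Gpam, Agpat2, Lpin1, Dgat2 and Gpd1 (dark red) hold the largest share at D7 in their families, whereas Pck1 holds 2.36% of the PEPCK pair.

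The order of the levels changed between the stages. At D0, FPKM fell from Agpat2 through Dgat1, Gpd2, Lpin1, Gpam, Lpin2, Dgat2, Gpd1 and Aqp7 to Pck1. The intervals of Dgat1 and Gpd2 overlapped, as did those of Lpin1 and Gpam and of Aqp7 and Pck1, so the order within these pairs was not resolved. At D7 the order was Agpat2, Gpd1, Dgat2, Dgat1, Gpam, Lpin1, Gpd2, Aqp7, Lpin2 and Pck1, and no neighbouring intervals overlapped. Gpam, Lpin1 and Dgat1 kept similar proportions, with ratios between 12.8 and 14.2 whose neighbouring intervals overlapped. The level of Gpam was 0.944 times that of Lpin1 at D0 and 1.05 times at D7. The numbers of fragments in genes with several exons are approximate, and the spread between cultures is unknown.

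**Figure D3:**
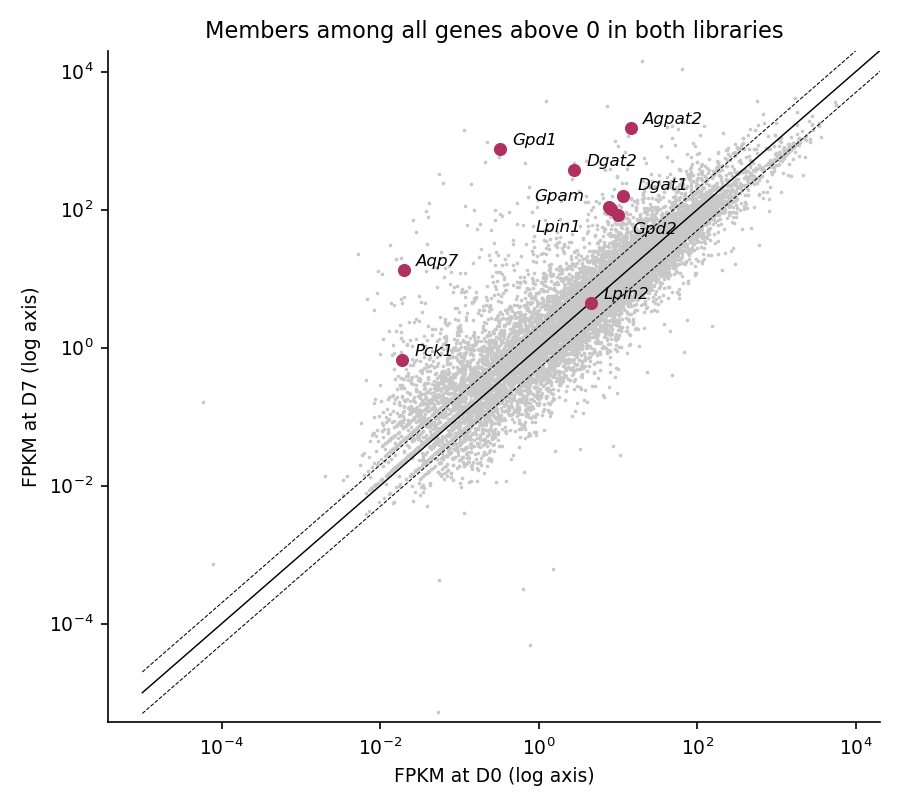
FPKM at D7 against FPKM at D0 for the 14984 genes above 0 in both libraries (grey) and the 10 genes (dark red), on log axes, with lines at equal values (solid) and at 2.0-fold (dashed). Lpin2 lies on the line of equal values, and the other 9 genes lie above the upper dashed line.

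The other genes of the pathway moved less uniformly. Of 28 such genes, 24 were above 0 in both libraries, and 7 of these (29.2%) were higher by at least 2.0-fold, 5 (20.8%) were lower and 12 lay between, where 18.5% and 13.2% of all genes were higher and lower. With the floor and library median, 6 were higher and 7 lower. Their median log2 ratio was 0.24, and was -0.11 after the floor and division by the library median. Besides Gpat3, Agpat3, Gk, Pcx and Aqp11, the higher genes were Bscl2 and Fitm2, which act where lipid droplets bud from the endoplasmic reticulum. Bscl2, which encodes seipin, went from 21.1 FPKM in preadipocytes to 144.9 FPKM in adipocytes, with a ratio of 6.87 (6.38 to 7.42). Fitm2 stood at 9.32 FPKM before and 62.1 FPKM after differentiation, which is a ratio of 6.67 (6.17 to 7.21). The muscle-type Fitm1 was listed at 0 in preadipocytes and had about 1 fragment in adipocytes. Ctdnep1 and Cnep1r1, the phosphatase pair that activates lipins by dephosphorylation, had ratios of 0.909 (0.846 to 0.976) and 1.06 (0.969 to 1.17), and Ldaf1, the seipin partner listed as Tmem159, had a ratio of 1.07 (0.966 to 1.18). The lower genes were Gpat2, Lclat1, Plpp1, Plpp2 and Mogat2, whose values are given above.

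**Figure D4:**
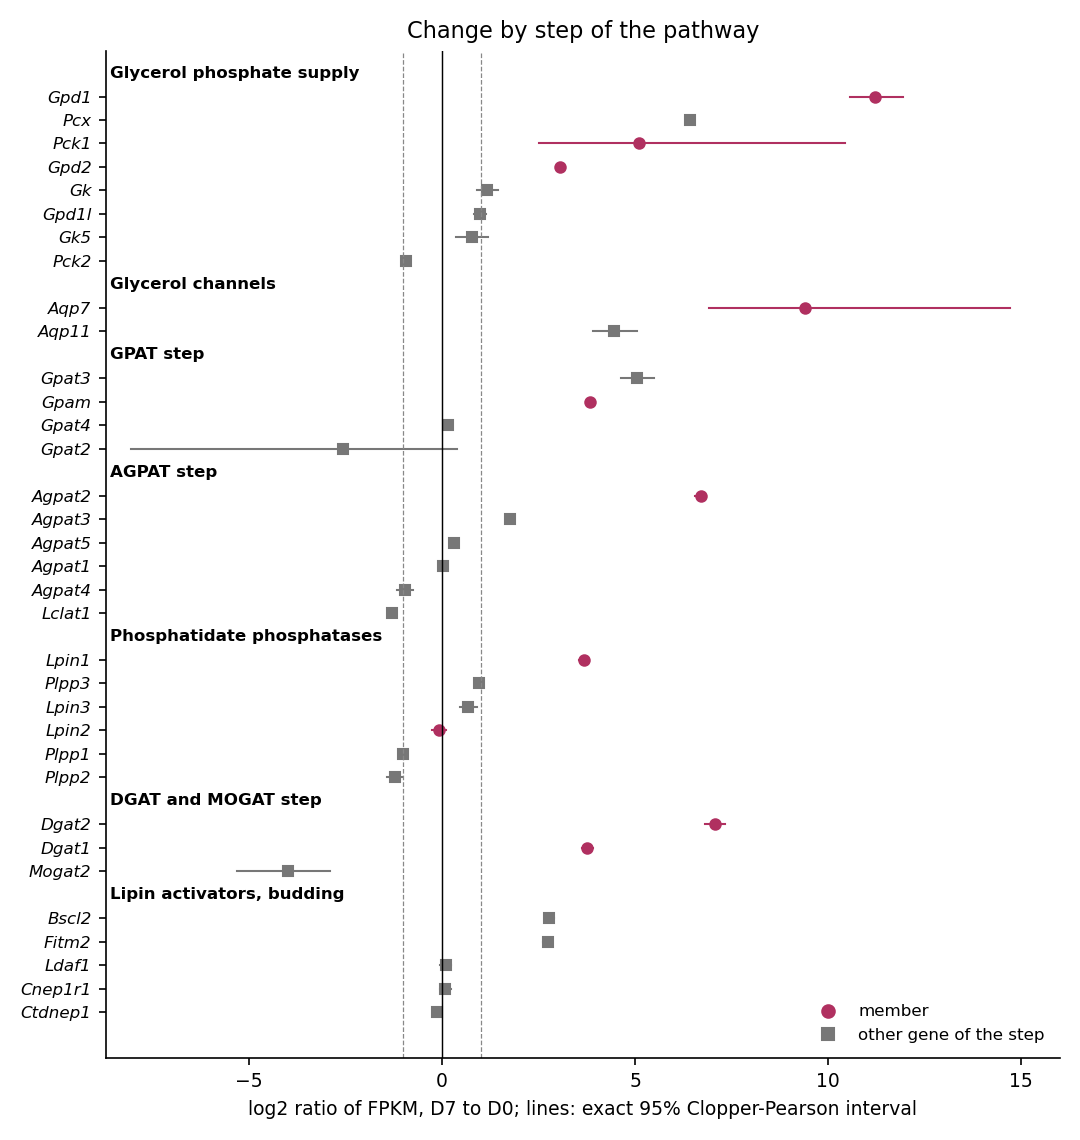
Log2 ratio of FPKM at D7 to D0 for genes above 0 in both libraries, by step of the pathway, with exact 95% Clopper-Pearson intervals as lines and dashed lines at 2.0-fold. Members (dark red circles) lie right of the dashed line except Lpin2, while the other genes (grey squares) lie on both sides.

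Promoter sequences are shown for Agpat2, the member with the highest level, for Gpam, the main GPAT transcript at D7, for Aqp7 and Pck1, the members with the lowest levels at D0, and for Lpin2, the member with no detectable change. RefSeq windows of GRCm38.p6 were listed for 7 of the 10 genes and in 6 lay at the 5′ end of the locus deposited with the FPKM values. Lpin2 had 3 windows and Gpam, Gpd2 and Aqp7 had 2 each, and 1 window per gene was used. The other windows of these genes are not described here. Shares of all windows below count windows and not genes. The spans printed above are those of GENCODE M21, which can differ from the deposited loci: the Gpam window lies inside its printed span, and the Lpin1 window, which adjoins its printed span, lay 21196 bp from the deposited start and was not used. Dgat1, Dgat2 and Gpd1 have no entry. The 250 bases before each start are printed 5′ to 3′ in the direction of the gene. Capitals mark matches, on either strand, to CACCC, the core motif of KLF factors to which KLF16 of this study belongs, to AGGTCA, a motif of nuclear receptors such as PPARγ, to TGACG, part of the cAMP response element, or to CCAAT. The windows are chr2:26604418-26604667, minus strand, for Agpat2, chr19:55099478-55099727, minus strand, for Gpam, chr4:41048137-41048386, minus strand, for Aqp7, chr2:173152823-173153072, plus strand, for Pck1, and chr17:71183728-71183977, plus strand, for Lpin2.
Agpat2: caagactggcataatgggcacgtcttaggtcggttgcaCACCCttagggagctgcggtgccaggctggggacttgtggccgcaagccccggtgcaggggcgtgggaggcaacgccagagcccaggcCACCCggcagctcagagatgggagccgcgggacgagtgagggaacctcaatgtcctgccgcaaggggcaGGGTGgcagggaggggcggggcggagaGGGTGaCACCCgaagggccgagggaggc
Gpam: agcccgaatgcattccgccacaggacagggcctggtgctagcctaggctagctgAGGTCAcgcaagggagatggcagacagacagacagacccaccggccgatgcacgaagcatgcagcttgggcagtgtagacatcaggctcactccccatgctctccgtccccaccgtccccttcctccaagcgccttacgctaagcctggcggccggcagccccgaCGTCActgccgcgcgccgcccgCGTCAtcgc
Aqp7: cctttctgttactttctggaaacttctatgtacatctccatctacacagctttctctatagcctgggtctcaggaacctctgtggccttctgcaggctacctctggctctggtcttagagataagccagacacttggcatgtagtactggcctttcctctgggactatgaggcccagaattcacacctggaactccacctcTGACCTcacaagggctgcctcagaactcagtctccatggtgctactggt
Pck1: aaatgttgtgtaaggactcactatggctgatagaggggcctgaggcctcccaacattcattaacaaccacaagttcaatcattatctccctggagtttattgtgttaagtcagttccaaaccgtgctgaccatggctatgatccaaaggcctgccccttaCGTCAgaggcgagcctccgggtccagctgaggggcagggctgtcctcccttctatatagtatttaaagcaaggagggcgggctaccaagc
Lpin2: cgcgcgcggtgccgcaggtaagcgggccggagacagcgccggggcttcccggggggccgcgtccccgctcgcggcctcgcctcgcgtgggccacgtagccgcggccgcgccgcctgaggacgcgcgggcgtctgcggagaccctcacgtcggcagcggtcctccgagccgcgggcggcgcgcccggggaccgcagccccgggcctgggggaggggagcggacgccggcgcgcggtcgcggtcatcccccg

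The Agpat2 window, with a GC content of 69.2%, held 5 matches to CACCC, and 0.667% of the 32851 promoter windows of all genes held at least 5. The cutoff of 5 was taken from the Agpat2 window itself, so this share is a description and not a test. At least 1 match to CACCC was in 52.0% of all windows and in 2 of the 6 member windows, those of Agpat2 and Gpd2. AGGTCA was in 14.0% of all windows and in those of Gpam, 196 bases before the start, and Aqp7, 49 bases before it. TGACG was in 17.8% of all windows and in those of Gpam, at 31 and 9 bases, and Pck1, at 90 bases, a promoter known for its response to cAMP. CCAAT was in 33.9% of all windows and in 0 of these 6. The Lpin2 window used, 1 of 3 listed, had a GC content of 83.2% and held none of the 4 motifs. A match is a description of the letters and not evidence of binding.

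Loci of 6 of the 10 genes overlapped no other annotated gene. The deposited locus of Agpat2 overlaps Egfl7 and Gm20532, that of Gpd1 overlaps Gm16537, and that of Gpd2 overlaps A930012O16Rik and Gm13535, all on the opposite strand, while Lpin2 overlaps Gm26561 on its own strand. The methods of the study describe degrading the second cDNA strand with UNG. Whether strand was used in counting was not given in the sources used here, so these 4 values may hold reads of the overlapping genes.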

How the data were processed

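RNA-Seq libraries of brown preadipocytes (D0) and brown adipocytes (D7) were analysed, 1 per stage. The authors removed adaptor, low quality, duplicate and rRNA reads, used SOAP2 to align the others to gene sequences and to mm10, and deposited the FPKM of each gene in each library. The labels also list Bowtie2. Values were given in 23361 of 27324 rows, and for 2 symbols listed again the row with the larger sum was used. Genes above 0 in both libraries were compared by their ratio of D7 to D0, with no pseudocount and no rescaling, and called at 2.0-fold, the threshold of the study.

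The fragments behind each FPKM were recovered by a calibration on 600 single-exon genes of at least 600 bp, whose ends matched GENCODE M21 within 500 bp. With 179 bp (D0) or 182 bp (D7) taken from each length, 100% of the 79 and 90 values worth 20 fragments or fewer came out whole within a tolerance of 0.1. These lengths and the library sizes were chosen to make such values whole, so this share is not an independent check. For members the length was that of the transcript named in the table (8 genes) or of the longest coding transcript (Gpam and Lpin2). Ratios carry exact 95% Clopper-Pearson intervals and levels exact Poisson intervals. Folds against a gene at 0 use a limit of 3 fragments.

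The members, the pathway and marker lists and the alternatives were chosen with earlier results of these data known. Named are all members, list genes past 2.0-fold with FPKM of at least 1 in a library, and others that answer a statement about a list. With 2 libraries each gene has 1 ratio, so likeness of patterns was not measured. All 68 genes of the lists had values, some under older symbols. Alternatives were pseudocounts of 0.1 and 1, TPM, median, upper quartile and trimmed mean scaling, a floor of 0.01 with the library median, summed rows of a symbol, a filter at FPKM of 1, a 4.0-fold threshold and, chosen after seeing the data, low values raised to the worth of 3 fragments. Simulated data with known answers were used to test the computation. Software was scipy 1.17.1, numpy 2.4.6, pandas 2.3.3, matplotlib 3.10.9 and Python 3.11.15.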

Additional observations from a re-analysis of the deposited data

How the results depend on the processing

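No paired analysis was possible because each stage has 1 library. Under the 11 alternatives 8 or 9 of the 10 members were higher by at least 2.0-fold and 0 were lower by that much. The count was 8 with a pseudocount of 1, where the ratio of Pck1 was 1.62, and with the filter at FPKM of 1, which leaves Pck1 out. Summed rows could not change the count, since all 10 members have a single row. TPM, median, upper quartile and trimmed mean scaling shifted log2 ratios by between -0.0134 and -0.0448, too little to move a member across 2.0-fold. The median log2 ratio of the members was 3.66 with a pseudocount of 1 and 3.80 with low values raised to the worth of 3 fragments. The median of the other pathway genes was -0.11 and that of the phospholipid genes 0.20 with the floor and library median. Lower pathway genes numbered 3 with a pseudocount of 0.1, 3 with 1, 2 at 4.0-fold, 6 with upper quartile scaling and 7 with the library median, where 6 were higher. Lower phospholipid genes numbered 1 with a pseudocount of 0.1, 0 with 1, and 1 each with the filter at FPKM of 1, at 4.0-fold and with the limit of 3 fragments, but 3 with the library median. Higher phospholipid genes numbered 2 with a pseudocount of 1, 2 with the library median and 1 at 4.0-fold. Lower diacylglycerol kinases numbered 1 with a pseudocount of 0.1, 0 with 1, 1 with the filter, 1 at 4.0-fold and 2 with the limit of 3 fragments. With a pseudocount of 0.1 the family share of Pck1 at D0 was 0.232%. With a pseudocount of 1 it was 1.92% at D0 and 5.58% at D7, that of Gpd1 15.6% and 98.3%, and at D7 that of Lpin1 was 89.1%, of Lpin2 4.60% and of Aqp7 56.6%. Depth limits Pck1 and Aqp7 at D0, each with about 1 fragment, and no setting can show the spread between cultures.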

Other observations

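Diacylglycerol and phosphatidate also lead to phospholipids. Of 20 genes of this branch, 4 exceeded 2.0-fold upward at D7, 2 downward and 14 lay between, shares of 20.0% and 10.0% against 18.5% and 13.2% of all genes. Their median log2 ratio was 0.56. Chpt1, a choline phosphotransferase that turns diacylglycerol into phosphatidylcholine, stood apart, with 11.1 FPKM in preadipocytes and 246 FPKM in adipocytes, a ratio of 22.1 (95% interval 20.7 to 23.7). Cept1, which uses both choline and ethanolamine donors, had a ratio of 1.55 (1.44 to 1.68), and Selenoi, the ethanolamine phosphotransferase listed as Ept1, had a ratio of 0.961 (0.881 to 1.05). The other higher genes were Pcyt2, which makes the activated ethanolamine donor, with a ratio of 2.47 (2.27 to 2.68), Pemt, with 2.25 (1.61 to 3.18), and Cds1, with 2.66 (1.80 to 4.01). Each missed 2.0 under an alternative, Pcyt2 with the library median (1.93), Pemt with a pseudocount of 1 (1.95) and the library median (1.77), and Cds1 with a pseudocount of 1 (1.53). Etnk1 had a ratio of 1.98 (1.86 to 2.11). Pcyt1b was lower, with 0.340 (0.232 to 0.488), or 0.622 with a pseudocount of 1, and Etnk2 rested on about 5 fragments at D0 and 1 at D7.

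Diacylglycerol kinases turn diacylglycerol back into phosphatidate. Of 10 such genes 1 was higher, 4 were lower and 5 lay between, where 18.5% and 13.2% of all genes were higher and lower. Dgkd measured 7.38 FPKM in the D0 library and 29.7 FPKM in the D7 library, giving a ratio of 4.03 (3.74 to 4.35). Dgkh was lower, with FPKM of 2.77 and 1.14 and a ratio of 0.411 (0.314 to 0.534), or 0.567 with a pseudocount of 1. The other lower genes, Dgkg, Dgki and Dgkk, had at most 20 fragments in a library, and the intervals of Dgkg and Dgki include 1.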
